A study of Mus musculus with 3 samples.

Results

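Igf1, which encodes insulin-like growth factor 1, and the 7 genes of the IGF-binding proteins, Igfbp1 to Igfbp7, were described in UMI-RNAseq data of NIH3T3 cells. These 8 genes were chosen by name, as the rows of the deposited table whose gene name equals one of these symbols, out of 55573 genes listed. NIH3T3 is an established line of mouse embryo fibroblasts. The series holds 3 libraries of untreated cells, called library 1, library 2 and library 3 here. All of them carry the same label, and the cells of the line were kept in medium with 10% fetal bovine serum and antibiotics and, per the methods, detached with trypsin before lysis. No second condition, genotype or time point exists, so the comparisons are between genes within a library. Whether each library had a culture of its own is not said in the sources used here, so the spread between these libraries may be technical. The p-values below refer to these libraries only and do not measure that spread. With 3 libraries that share a sign, p is 0.25 whatever the spread. Serum is a mixture that brings hormones and carrier proteins of its own, so the medium is part of what limits these cells as a model of IGF supply. The libraries rest on 13959723 to 14423209 counted fragments. Of 12 fibroblast genes fixed as markers, 10 had a mean of at least 1 FPKM, led by the fibronectin gene Fn1 at 4377 ± 86.1 FPKM (SD, n = 3). Lum was listed at 0, and Postn was the other marker under 1 FPKM. The extraction text in the labels speaks of retina, but 0 of 12 retina markers reached 1 FPKM, and the highest, Rcvrn, had a mean of 0.363 FPKM. None of the 4 hepatocyte or 4 epithelial markers reached it either, while 2 of 6 leukocyte markers, led by Lyz2 with 2.54 FPKM, and 1 of 4 endothelial markers, Cdh5 with 1.35 FPKM, did. The part of such cells in the levels below was not tested.

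Insulin-like growth factors are small secreted proteins related to insulin that promote growth and survival through the receptor tyrosine kinase encoded by Igf1r. In body fluids they are mostly held by IGF-binding proteins, which keep them from the receptor, carry them, or release them when a protease cuts the binding protein. Fibroblasts are a known source of several binding proteins, whereas liver is the main source of circulating IGF1 and a major source of the binding protein encoded by Igfbp1. Igfbp7 is the odd member of the family, since its product binds IGFs only weakly and also binds insulin.

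FPKM gives the fragments of a gene divided by its length in kilobases and by the library total in units of 1000000. Levels of different genes can thus be set side by side only for the lengths chosen, a choice that matters below. NIH3T3 cells carried transcripts of 3 of the 7 binding proteins at or above 1 FPKM, Igfbp4, Igfbp6 and Igfbp7, and the other 4, Igfbp1, Igfbp2, Igfbp3 and Igfbp5, were listed at 0 in every library. Igf1 itself was close to the limit of what the libraries could measure. Of all 8 genes, 3 had a mean of at least 1 FPKM, against 23.2% of all genes listed and 49.3% of the protein-coding genes. The 4 genes listed at 0 stand beside 28.1% of protein-coding genes that were listed at 0 in every library. With 8 genes, neither count was read as a departure from these shares.

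Igfbp4 had the highest level. Its product holds IGFs away from the receptor and is the best known target of the protease encoded by Pappa. Igfbp4 (ENSMUSG00000017493) lies on the plus strand of chromosome 11 from 99041244 to 99054392 (GRCm38, GENCODE M21). Libraries 1, 2 and 3 gave 324.2, 310.5 and 299.5 FPKM. Library 1 was the highest and library 3 the lowest. The mean was 311.4 ± 12.3 FPKM (SD, n = 3), at rank 286 of the 12905 genes that averaged 1 FPKM or more, above 97.8% of them. These values rest on 5531, 5128 and 5070 fragments.

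Igfbp6 was the next lower gene. Its product is known for binding IGF2 much more tightly than IGF1. Igfbp6 (ENSMUSG00000023046) lies on the plus strand of chromosome 15 from 102144362 to 102149511. Its levels were 229.4, 221.5 and 224.0 FPKM in the same order of libraries, and the mean was 225.0 ± 4.04 (SD, n = 3), from 3680, 3439 and 3564 fragments. No library of Igfbp6 reached the lowest library of Igfbp4. Igfbp6 ranked 436, above 96.6% of the genes at 1 FPKM or more.

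Igfbp7 (ENSMUSG00000036256) is a minus-strand gene on chromosome 5, from 77349240 to 77408041. Its 3 values were 55.6, 56.0 and 52.2 FPKM, which average 54.6 ± 2.08 (SD, n = 3). Libraries 1 and 2 were nearly alike, library 3 was lower, and no library reached the range of Igfbp6. The values rest on 929, 905 and 865 fragments, and the mean ranked 2554, above 80.2% of the genes at 1 FPKM or more. The annotation of Igfbp7 overlaps that of Polr2b by 85 nt, and that of the antisense gene Gm34648 by 7085 nt. Polr2b had 52.3 to 55.0 FPKM and Gm34648 at most 0.620. Of all 75-nt words in the transcripts of Igfbp7, 0.914% were found in transcripts of other genes. The part that reads shared with either gene play in Igfbp7 was not tested.

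**Figure D1:**
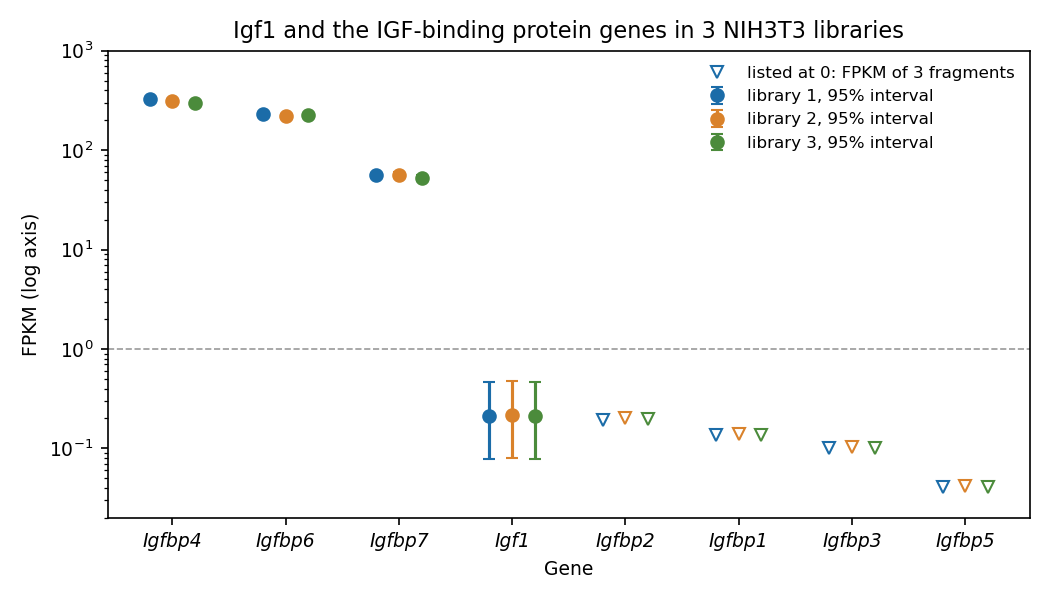
FPKM of the 8 genes (x axis) in each of 3 NIH3T3 libraries (y axis, log scale). Filled points are measured values with exact 95% counting intervals, open triangles mark genes listed at 0, drawn at the FPKM that 3 fragments would give, and the dashed line marks 1 FPKM. Igfbp4, Igfbp6 and Igfbp7 lie between 52.2 and 324.2 FPKM, Igf1 lies near 0.21 FPKM, and the 4 other genes are listed at 0.

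Igf1 (ENSMUSG00000020053) lies on the plus strand of chromosome 10 from 87858265 to 87937042 and encodes the ligand that the binding proteins hold. The libraries gave 0.212, 0.219 and 0.214 FPKM, and the mean was 0.215 ± 0.00367 (SD, n = 3). Each of these values rests on 6 fragments, so the near equality of the libraries is the equality of a count of 6. The exact Clopper-Pearson 95% interval was 0.0777 to 0.461 FPKM for library 1 and 0.0803 to 0.476 FPKM for library 2. For library 3 it was 0.0784 to 0.465 FPKM. Intervals and limits here cover counting error only. Igf1 overlaps the antisense gene Igf1os over 5117 nt, and Igf1os was listed at 0 in every library. The strand setting used in counting is not given in the sources used here.

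The 4 binding protein genes listed at 0 had 0 recovered fragments in each library. A count of 0 allows up to 3 fragments, which is 0.201 FPKM for Igfbp2 (ENSMUSG00000039323) in library 2, the library with the fewest fragments. In the same library it is 0.141 FPKM for Igfbp1 (ENSMUSG00000020429), 0.104 for Igfbp3 (ENSMUSG00000020427) and 0.0418 for Igfbp5 (ENSMUSG00000026185). These limits differ because the genes differ in length, from 1068 nt for Igfbp2 to 5144 nt for Igfbp5. No annotated gene overlaps any of these 4 genes, and 0% of their 75-nt words were found in transcripts of other genes. A value of 0 can still be a failed estimate: the Mediator subunit gene Med10, which every cell uses, was also listed at 0, although Med10, unlike these 4 genes, overlaps another annotated gene, over 6181 nt. Med10 was named after its value was seen. The products of the genes at 0 have varied roles as carriers. Igfbp3 encodes the main carrier of IGFs in blood, Igfbp2 and Igfbp5 encode binding proteins that also attach to matrix or cell surface, and Igfbp1 encodes a binding protein lowered by insulin.

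The order of the genes was Igfbp4, Igfbp6, Igfbp7 and Igf1 in each library. The ratio of Igfbp4 to Igfbp6 was 1.41, 1.40 and 1.34 in libraries 1, 2 and 3, on average 1.38 ± 0.0408 (SD, n = 3). Igfbp6 lay above Igfbp7 by a factor of 4.12 ± 0.167 (SD, n = 3). Igfbp7 lay above Igf1 by a factor of 254.3 ± 9.14 (SD, n = 3), with an exact 95% counting interval of 160.6 to 429.8 from 2699 and 18 summed fragments. The log2 of this ratio, 7.99, was 9.78 with the longest isoforms, 7.23 without division by length, 7.44 with 0.1 FPKM added and 5.52 with 1 FPKM added, so its size depends on these choices. These 3 differences exceeded the spread between libraries, and the ranges of neighbours did not overlap. The exact two-sided sign-flip permutation test of the within-library log2 ratio gave p = 0.25 for each, and 0.25 after Benjamini-Hochberg adjustment over 4 ratios. With 3 libraries, no smaller p can be reached. The fourth ratio, of Igf1 to 3 assumed fragments of Igfbp2, is fixed by 6 fragments, 3 fragments and the lengths of both genes. Its test therefore says nothing and no order is read from it, although it is 1 of the 4 ratios adjusted together. The counting interval of Igf1 overlapped that of Igfbp1, Igfbp2 and Igfbp3 in all 3 libraries. It lay above that of Igfbp5, the longest of the genes at 0, in all 3 libraries, but overlapped it in all 3 with the longest isoforms or without division by length. Igf1 had 18 fragments in all, against 0 for each of these 4 genes.

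Against the same limit of 3 fragments in each library, Igfbp4 was at least 1526-fold higher than Igfbp2 and at least 7349-fold higher than Igfbp5. Igfbp6 was at least 1101-fold higher than Igfbp2, and Igfbp7 at least 266-fold higher. These are the lowest values over the libraries. With the longest isoforms, the bounds for Igfbp4 were lower, 577-fold over Igfbp2 and 2649-fold over Igfbp5. Without division by length, each bound is a ratio of fragments to 3, and the lowest were 1690-fold for Igfbp4, 1146-fold for Igfbp6 and 288-fold for Igfbp7. The contrast between the 3 binding proteins with transcripts and the 4 at 0 was thus far larger than any difference among the former.

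As a share of the FPKM summed over Igfbp1 to Igfbp7, Igfbp4 made up 53.2%, 52.8% and 52.0% in libraries 1, 2 and 3. Igfbp6 made up 37.7%, 37.7% and 38.9%, and Igfbp7 9.13%, 9.52% and 9.07%. The sum was 591.0 ± 16.9 FPKM (SD, n = 3). A share of transcripts is not a share of secreted protein, which was not measured.

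The first place of Igfbp4 depends on the length by which its fragments are divided. The deposited values imply a length of 1183 nt, which equals the mean over 6 annotated isoforms. The longest, a protein-coding isoform, measures 3831 nt, and the other 5 lie between 452 and 799 nt. Igfbp6 has a single isoform of 1112 nt. When the longest isoform was used as the length throughout, Igfbp4 had 100.1, 95.9 and 92.5 FPKM, below every library of Igfbp6. The log2 ratio of Igfbp4 to Igfbp6 then turned from 0.47 to -1.23. Without division by length, Igfbp4 again lay above Igfbp6, with 368.4 ± 14.6 against 250.2 ± 4.50 fragments per 1000000 (SD, n = 3), a scale on which longer genes gain. Values per gene do not say which isoform of Igfbp4 the cells carried, so the order of Igfbp4 and Igfbp6 holds for the length used by the authors. Igfbp7, with isoforms of 1116 and 1200 nt, stayed the lowest of the 3 on each scale.

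**Figure D2:**
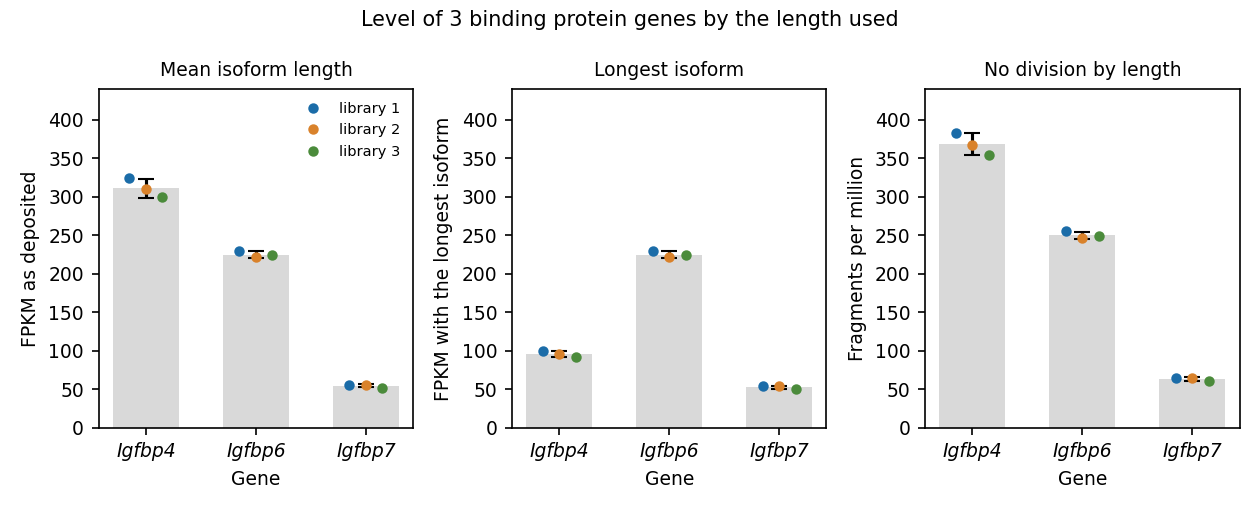
Level of Igfbp4, Igfbp6 and Igfbp7 (x axis) on 3 scales, with bars at the mean of 3 NIH3T3 libraries, error bars of 1 SD and a point for each library. The left panel shows FPKM as deposited, the middle one FPKM with the longest annotated isoform and the right one fragments per 1000000 without division by length. Igfbp4 is the highest at 311.4 FPKM and 368.4 fragments per 1000000 but falls to 96.2 FPKM, below Igfbp6 at 225.0, with the longest isoform.

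The spread between libraries differed among the measured genes. Igfbp4 had a coefficient of variation of 3.96%, against 1.38% from counting error alone. For Igfbp6 these values were 1.80% and 1.68%, and for Igfbp7 3.81% and 3.34%. The chi-square of the fragments over the libraries was 16.6 for Igfbp4, 2.30 for Igfbp6 and 2.62 for Igfbp7. The limit that counting error alone passes in 5% of genes is 5.99, so 1 of 3 genes with at least 30 fragments lay over it, against 9.48% of all genes with that many. Library 1 decides this. Without it, the chi-square of Igfbp4 was 3.30, under the limit of 3.84 for 2 libraries. Per 1000000 fragments, the libraries held 383.5, 367.3 and 354.4 of Igfbp4. The 3 protein-coding genes outside the family most like Igfbp4 in level, by the mean absolute difference in log2(FPKM + 1) over the 3 libraries, were Vegfa at 0.029, Actn1 at 0.034 and Dpysl3 at 0.036. Their means were 316.6, 315.7 and 314.4 FPKM. None of them was among the nearest 3 when library 1 was left out, with the longest isoforms or without division by length. This nearness is thus one of level only and holds for the lengths used by the authors.

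The sequences just before the starts of the binding protein genes are shown because these genes split into 3 with transcripts and 4 at 0. All 8 genes had a promoter entry in RefSeq on GRCm38.p6, and for each binding protein gene the start nearest to that of GENCODE M21 was taken. The 100 bases before it are given 5′ to 3′ on the strand of the gene. Capitals mark TATAAA, the core of a TATA box, and GGGCGG, a GC box, on either strand. The motifs share no letters by overlap in these windows.
Igfbp4, chr11:99041144-99041243, plus strand: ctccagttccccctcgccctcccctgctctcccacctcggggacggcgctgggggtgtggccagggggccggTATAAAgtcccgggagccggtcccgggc
Igfbp6, chr15:102144086-102144185, plus strand: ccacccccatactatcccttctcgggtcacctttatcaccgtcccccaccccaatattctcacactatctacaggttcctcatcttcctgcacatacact
Igfbp7, chr5:77408046-77408145, minus strand: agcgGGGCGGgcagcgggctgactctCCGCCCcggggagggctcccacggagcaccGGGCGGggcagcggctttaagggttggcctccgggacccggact
Igfbp2, chr1:72824380-72824479, plus strand: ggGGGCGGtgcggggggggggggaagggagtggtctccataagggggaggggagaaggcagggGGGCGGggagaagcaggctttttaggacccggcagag
Igfbp5, chr1:72874866-72874965, minus strand: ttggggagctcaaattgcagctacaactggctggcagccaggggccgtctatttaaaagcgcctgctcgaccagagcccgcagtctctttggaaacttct
Igfbp1, chr11:7197687-7197786, plus strand: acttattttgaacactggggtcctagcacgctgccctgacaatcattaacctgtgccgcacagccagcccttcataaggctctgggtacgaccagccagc
Igfbp3, chr11:7213924-7214023, minus strand: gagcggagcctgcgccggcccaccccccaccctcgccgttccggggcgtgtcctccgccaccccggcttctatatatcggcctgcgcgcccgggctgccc

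Igfbp4 was the gene with TATAAA in this window, beginning 28 bases before the start. This motif stands in the same window of 5.56% of 32841 RefSeq promoters. Only these exact letters were searched for. Similar letters stand unmarked before genes at 0, TATATAT before Igfbp3 and TATTTAAAA before Igfbp5. Whether any of these stretches works as a TATA box was not tested. Igfbp7 held 3 GC boxes and Igfbp2 held 2, and 24.7% of promoters hold at least 1. A GC box thus stood before a gene with transcripts and before a gene at 0. In the full 300 bases of the promoter entry, from 250 before to 50 after the start, the number of CG dinucleotides was 37 for Igfbp3, 33 for Igfbp7, 27 for Igfbp4, 18 for Igfbp2, 10 for Igfbp5 and 8 for both Igfbp1 and Igfbp6, with a median of 7 over all promoters. The numbers of the 3 genes with transcripts, 8 to 33, fall within those of the 4 genes at 0, 8 to 37. For Igfbp6, the RefSeq start lies 176 bases upstream of the GENCODE start, and for the others the starts lie within 23 bases. A match of letters is a description of the sequence, not of a factor bound there.

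The 4 genes at 0 are those that lie in adjacent pairs. Igfbp2 (72824503 to 72852474) and Igfbp5 (72857932 to 72874884) face each other on chromosome 1, tail to tail, with 5457 nt between them. Igfbp1 (7197782 to 7202546) and Igfbp3 (7206086 to 7213923) face each other in the same way on chromosome 11, with 3539 nt between them. Since both genes of each pair were at 0, no ratio within a pair was given. The genes around the pairs were looked up after the values were seen, within 400 kb of the midpoint of each pair. Near Igfbp2 and Igfbp5, the ribosomal protein gene Rpl37a, 110.7 kb from Igfbp2, had 490.4 ± 14.2 FPKM (SD, n = 3) and the DNA annealing helicase gene Smarcal1 had 15.5 ± 0.838. March4 had a mean of 0.0362 FPKM, and Ankar and the spermatid gene Tnp1 were listed at 0. Near Igfbp1 and Igfbp3, the 3 other protein-coding genes, Adcy1 for an adenylyl cyclase, Cccd201 and Gm11983, were all listed at 0, and the next on the far side of Igfbp3, Tns3, 1218 kb away, had 56.0 ± 0.744 FPKM. The pairs thus lay in surroundings that differed, with Rpl37a and Smarcal1 above 1 FPKM near the former and no other protein-coding gene above 0 in the window around the latter.

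The binding protein genes with transcripts stand apart from other family members on the chromosome. Igfbp4 lies between Top2a, for a DNA topoisomerase of dividing cells, with 205.3 ± 5.59 FPKM and Tns4 with 1.55 ± 0.301 (SD, n = 3). Igfbp6 lies between Spryd3 with 27.7 ± 1.99 FPKM and Soat2 with 21.7 ± 0.106 (SD, n = 3). Igfbp7 lies between Noa1 with 12.5 ± 0.395 FPKM and Adgrl3 with 0.0476 ± 0.0270 (SD, n = 3). Polr2b, which overlaps Igfbp7, had 52.9, 55.0 and 52.3 FPKM, a range that overlaps that of Igfbp7. Igfbp4 lay above Top2a with the length used by the authors, but with the longest isoform of Igfbp4 its mean was 96.2 FPKM.

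**Figure D3:**
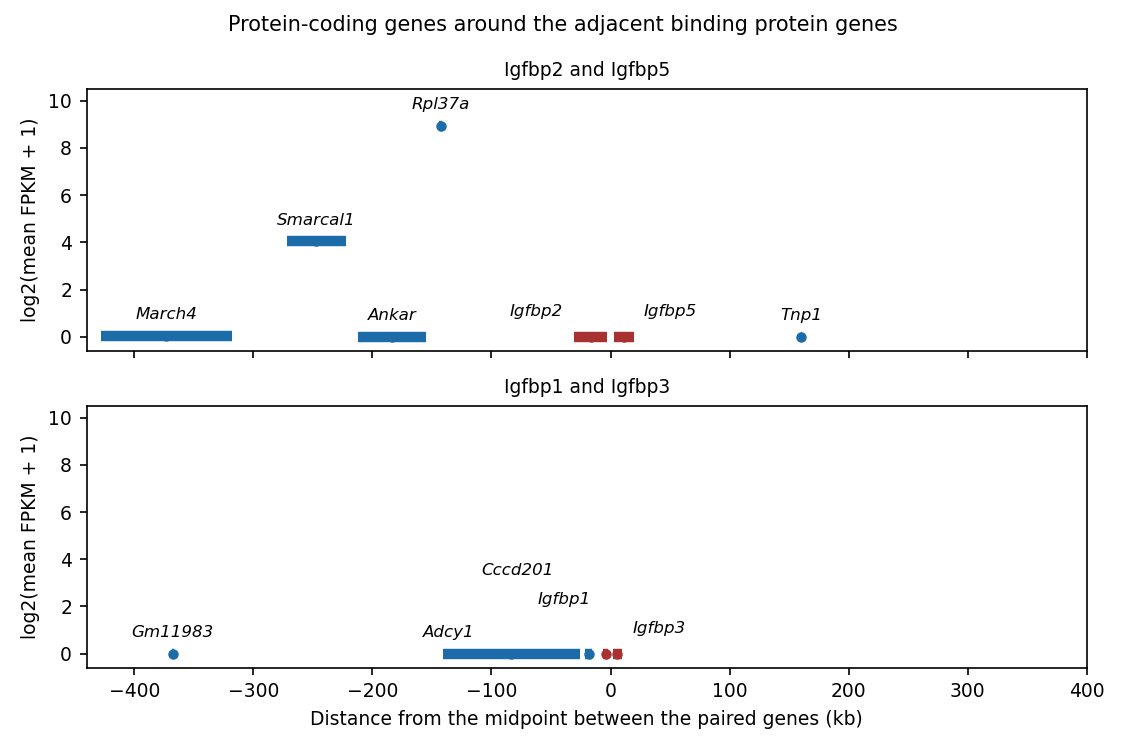
Protein-coding genes within 400 kb of the midpoint of each adjacent pair of binding protein genes, by distance from that midpoint in kb (x axis) and log2 of the mean FPKM + 1 over 3 NIH3T3 libraries (y axis). Bars span the genes, points mark their middles, the paired genes are in red, and the names of Cccd201, Igfbp1 and Igfbp3 follow their points from left to right. Around Igfbp2 and Igfbp5, Rpl37a with 490.4 FPKM and Smarcal1 with 15.5 stand above 1 FPKM, and March4 has 0.0362. The protein-coding genes around Igfbp1 and Igfbp3 are at 0.

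The other ligands of the axis were not seen. Igf2, for the fetal growth factor that the product of Igfbp6 binds more tightly than IGF1, and the insulin genes Ins1 and Ins2 were listed at 0 in every library. So 0 of 4 ligand genes reached 1 FPKM, Igf1 included.

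The receptors were present. Igf1r, the signalling receptor for IGFs, had 64.2, 66.5 and 65.5 FPKM in libraries 1, 2 and 3. Igf2r, which takes up IGF2 for breakdown in lysosomes and also sorts lysosomal enzymes, had 84.0, 82.7 and 83.9 FPKM. Insr, the insulin receptor, had 34.5, 34.4 and 35.1 FPKM. The ranges of these 3 genes did not overlap, and Igf1r lay above Insr by a factor of 1.89 ± 0.0392 and below Igf2r, which was 1.28 ± 0.0331 times higher (SD, n = 3). Insrr, a related receptor, had a mean of 0.0145 FPKM from 2 fragments in all. The level of Igf1r was 304.6 ± 2.08 times that of Igf1 (SD, n = 3), an SD that leaves out the counting error of 6 fragments of Igf1 in each library. The order of the receptors and these factors hold for the lengths used by the authors. They were not recomputed with other lengths.

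Below the receptors, 8 of 10 receptor substrates and adaptors had a mean of at least 1 FPKM. Grb10, an imprinted adaptor that restrains insulin and IGF receptors, was the highest with 294.2, 305.5 and 294.7 FPKM in libraries 1, 2 and 3. This was close to Igfbp4 in level with the lengths used by the authors. Irs3 was listed at 0. All 16 genes fixed for the arm from PI3K to AKT and FOXO reached 1 FPKM, from the transcription factor gene Foxo1 with 4.70 to 5.08 FPKM over the libraries to the kinase gene Akt1 with 215.6 to 223.6 FPKM. Of all 67 genes in the lists other than Igf1 and the binding proteins, 53 (79.1%) reached 1 FPKM. The same limit was reached by 23.2% of all genes listed and 49.3% of the protein-coding genes. These shares also stand beside the counts given for each list. The median over all 67 was 22.9 FPKM, against 0.830 over all protein-coding genes listed. The lists were put together by role, so a high share of detected genes says nothing particular about the axis.

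Among proteases that cut binding proteins, the pattern was uneven. Pappa, whose product cuts the binding protein encoded by Igfbp4, had 0.874, 0.935 and 0.818 FPKM in libraries 1, 2 and 3. This is under the limit of 1 FPKM and rests on 412 fragments in all. Pappa was the highest gene of all lists under this limit. Rescaled to 1000000 per library, 54 genes of the lists rather than 53 reached it, so the place of Pappa under the limit depends on the scaling. With the lengths used by the authors, Igfbp4 lay above Pappa by a factor of 356.4 ± 21.3 (SD, n = 3). The size of this factor depends on the length chosen for Igfbp4. Pappa2, for a related protease, had a mean of 0.542 ± 0.0801 FPKM (SD, n = 3). Stc2, for an inhibitor of the product of Pappa, had 21.4, 23.5 and 23.8 FPKM. With the lengths used by the authors, this was 26.2 ± 2.48 times the level of Pappa (SD, n = 3). Stc1 had a mean of 0.144 ± 0.0734 (SD, n = 3). The protease genes with higher levels were Ctsd, for a lysosomal protease, with 117.8 ± 0.932 FPKM and Adam9 with 105.3 ± 1.35 (SD, n = 3). Htra1 had 17.2 ± 0.859, Adam12 had 8.12 ± 0.183 and Htra3 had 6.71 ± 0.367 FPKM (SD, n = 3). Adam28 was listed at 0, so 6 of the 10 genes in this list reached 1 FPKM with the values as deposited.

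Of the carriers and relatives of binding proteins, 6 of 10 reached 1 FPKM. Igfals, which encodes the third part of the carrier complex in blood, had 4 fragments in all. Igfbpl1, a gene related to the family, was listed at 0. Ccn1, for a matrix protein whose amino-terminal domain resembles that of binding proteins, was the highest with 119.2 ± 0.398 FPKM (SD, n = 3). In the growth hormone axis, which drives Igf1 in liver, all 5 genes reached 1 FPKM. Ghr, the growth hormone receptor gene, was the highest with 195.6, 201.7 and 198.6 FPKM, and Stat5a the lowest with 10.9 ± 0.570 (SD, n = 3). With the lengths used by the authors, the receptor gene was therefore present at a level near that of Igfbp6. In the same cells Igf1 was at 6 fragments per library.

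All 6 genes fixed as cell surface partners of binding proteins reached 1 FPKM. Lrp1, for a large endocytic receptor, was the highest with 1014 ± 20.8 FPKM and Cd93, a receptor for the product of Igfbp7, the lowest with 2.70 ± 0.154 (SD, n = 3). The Igf2bp genes share part of their name with the family but encode RNA-binding proteins of Igf2 mRNA and do not bind IGFs. Igf2bp2 had 111.6 ± 3.49, Igf2bp1 45.7 ± 1.62 and Igf2bp3 26.1 ± 1.18 FPKM (SD, n = 3), with Igf2 itself at 0.

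**Figure D4:**
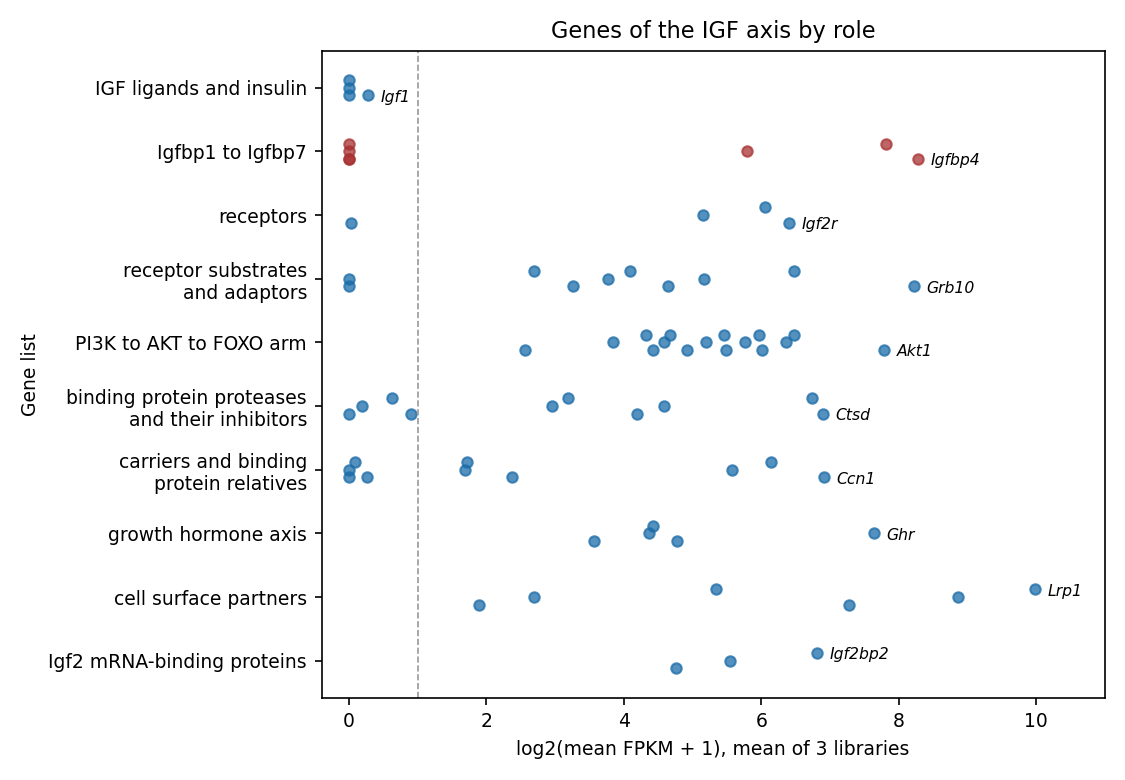
Mean level over 3 NIH3T3 libraries of each gene, as log2 of the mean FPKM + 1 (x axis), by role in the IGF axis (y axis), with the highest gene of each list named. Points left of the dashed line have under 1 FPKM, and Igfbp1 to Igfbp7 are in red. The 4 ligand genes and 4 of the 7 binding protein genes lie left of the line, while all 16 genes of the PI3K to AKT arm lie right of it.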

How the data were processed

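Total RNA of NIH3T3 cells was made into 3 UMI-RNAseq libraries. Per the methods and the submitters' processing notes, UMIs were read with UMI-tools 1.0.0, reads were mapped with HISAT2 2.0.4, copies with the same place and UMI were dropped, and genes were counted with HTSeq 0.6.1. The authors divided these counts by gene length and library total and deposited FPKM values. Both deposited tables hold the same values, and 0 columns were left unused. The build and annotation are not given in the sources used here. Lengths from GENCODE M21 (GRCm38) gave whole fragments (within 0.01) for 99.2% of genes above 0, with library totals taken from the commonest value of 1 fragment among genes with 1 isoform. The step was also run on simulated fragments made with the same lengths, which cannot show that the authors used these lengths.

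FPKM were used as deposited, with a floor of 3 fragments for genes at 0. Intervals are exact Clopper-Pearson 95% intervals. The alternatives were other scalings between libraries, other lengths, pseudocounts of 1 and 0.1, other FPKM limits and leaving out each library. Ratios within a library were tested with an exact sign-flip permutation test. The rule for named genes covered the 8 genes, every ligand, receptor, protease and Igf2 mRNA-binding protein in the lists, the highest and lowest gene of the other lists, the highest gene of each marker list, and the 3 genes nearest Igfbp4. The genes and lists were chosen with earlier results of these data known, and neighbouring and overlapping genes, Igfals, Lum, Postn and Med10, which this rule does not cover, were named after the values were seen. Protein sequences were not used here. Python 3.11.15, numpy 2.4.6, pandas 2.3.3, scipy 1.17.1 and matplotlib 3.10.9 were used.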

Additional observations from a re-analysis of the deposited data

How the results depend on the processing

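Across the alternatives, 175 values of 18 results were recomputed. Of these, 133 stayed close to the reported value, 40 moved further, and 2 changed sign. Close means within 1 SD over libraries or, for a count, within 1.5 times. For a ratio it means the same sign only, whatever its size. The 133 include values that could not move. Ratios and shares within a library cannot change under scalings between libraries. The ratio of Igf1 to 3 fragments of Igfbp2 cannot change when a library is left out. The number 133 is thus not read as a measure of stability. With the longest annotated isoform, the log2 ratio of Igfbp4 to Igfbp6 was -1.23 and that of Igf1 to the limit of 3 fragments for Igfbp2 was -1.43. That setting gave 96.2 FPKM for Igfbp4 and 0.0598 for Igf1, and shares of 25.7% for Igfbp4, 60.2% for Igfbp6 and 14.1% for Igfbp7. The longer divisor of Igfbp4 and Igf1 is what moves these values. Rescaled to 1000000 per library, the means were 451.1 for Igfbp4, 326.0 for Igfbp6, 79.1 for Igfbp7 and 0.311 for Igf1, and without mitochondrial genes 464.2, 335.5, 81.4 and 0.320. Not divided by length, they were 368.4, 250.2, 63.2 and 0.422 fragments per 1000000, with shares of 54.0% for Igfbp4 and 36.7% for Igfbp6. The number of genes over the chi-square limit lay between 0 and 1 when each replicate was left out, and it was 0 without library 1. Of all genes with at least 30 fragments, 6.96% lay over it without library 1, 9.04% without library 2 and 8.92% without library 3. The other log2 ratios kept their sign under every setting run, though that of Igfbp7 to Igf1 ranged from 5.52 (1 FPKM added) to 9.78 (longest isoform), and no p passed 0.05, which 3 libraries cannot reach. With limits of 0.1 or 10 FPKM, the counts of genes stayed within 1.5 times. The shares of all genes at these limits were not computed. No value was given for the adjacent pairs, since both genes of each were at 0. No paired analysis was possible because a block by replicate needs groups to compare, and the ratios between genes were already taken within each library. Depth limits Igf1 and the genes at 0.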
